A study of Homo sapiens with 6 samples.

Results

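The annexin and S100 mRNAs of 786-O cells were examined in RNA recovered with the RNA-binding protein IGF2BP2 and in input RNA. The members were the 10 rows of the count and FPKM tables whose symbols are *ANXA1*, *ANXA2*, *ANXA4*, *ANXA5*, *S100A4*, *S100A6*, *S100A10*, *S100A11*, *S100A13* and *S100A16*, of 20020 rows in all. All 10 were found and all 10 passed the filter on low counts, which kept 12856 genes. The cells are an established human line of clear cell renal carcinoma, so one line stands for the tumour. Of the 6 libraries, 3 were made by RNA immunoprecipitation sequencing (RIP-seq) with IGF2BP2 and 3 from input RNA, all from 786-O cells grown in RPMI1640 with serum and none labelled with a further treatment or genetic change. Libraries from a control antibody were not analysed here, so each value compares RIP with input and includes any RNA that the beads or an unrelated antibody would carry.

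Annexins are soluble proteins that bind acidic phospholipids of membranes when calcium rises, through a core of repeated domains. S100 proteins are small proteins with a pair of EF-hand motifs, mostly dimers, which change shape on binding calcium and then hold a partner protein. Some of the best known partners are annexins: S100A10 joins ANXA2 in a tetramer at the plasma membrane, and S100A11 binds the N-terminal tail of ANXA1. Members of both families are abundant in epithelial and carcinoma cells, where they take part in membrane repair, exocytosis and cell motility. IGF2BP2 is a cytoplasmic protein that binds mRNAs and is known as one of the readers of N6-methyladenosine.

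The S100 members lie on the long arm of chromosome 1, where most human S100 genes form a cluster, and the annexin members lie on 4 other chromosomes. The promoter windows of both known partner pairs are shown, because in each pair the mRNAs differed in how they were recovered with IGF2BP2 and because *S100A10* and *S100A11* are near neighbours that went in opposite directions. The sequences are those of RefSeq on GRCh38.p14, from 250 bases before to 50 bases after the annotated start, read along the gene's own strand. Capitals mark matches to TATAAA, the TATA box, and to GGGCGG, the GC box, on either strand, and runs of capitals over 6 letters are overlapping or touching matches.
S100A10: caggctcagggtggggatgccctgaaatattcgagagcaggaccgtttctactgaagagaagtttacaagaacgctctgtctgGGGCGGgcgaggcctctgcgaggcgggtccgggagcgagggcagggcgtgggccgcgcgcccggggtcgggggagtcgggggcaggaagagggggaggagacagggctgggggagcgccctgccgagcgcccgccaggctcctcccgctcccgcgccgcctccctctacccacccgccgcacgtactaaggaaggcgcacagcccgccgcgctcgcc
S100A11: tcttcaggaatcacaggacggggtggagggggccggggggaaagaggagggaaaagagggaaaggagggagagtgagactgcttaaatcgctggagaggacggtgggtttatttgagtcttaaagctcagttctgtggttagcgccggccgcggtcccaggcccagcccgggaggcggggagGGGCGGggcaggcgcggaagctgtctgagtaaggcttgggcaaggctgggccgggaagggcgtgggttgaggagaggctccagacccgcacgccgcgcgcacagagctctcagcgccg
ANXA2: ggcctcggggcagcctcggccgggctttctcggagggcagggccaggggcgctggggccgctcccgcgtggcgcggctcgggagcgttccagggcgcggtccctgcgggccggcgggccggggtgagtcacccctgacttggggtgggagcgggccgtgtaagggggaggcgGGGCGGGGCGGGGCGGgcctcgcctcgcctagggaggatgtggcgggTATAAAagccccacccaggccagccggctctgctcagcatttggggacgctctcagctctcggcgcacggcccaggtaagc
ANXA1: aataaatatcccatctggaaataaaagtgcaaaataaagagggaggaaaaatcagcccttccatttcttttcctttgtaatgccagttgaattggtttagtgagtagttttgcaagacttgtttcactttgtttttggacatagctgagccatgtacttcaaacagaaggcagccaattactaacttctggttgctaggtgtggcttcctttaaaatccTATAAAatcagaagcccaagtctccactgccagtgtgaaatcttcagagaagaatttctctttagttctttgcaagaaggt
These windows are chr1:151993810-151994109 on the minus strand for *S100A10*, chr1:152036955-152037254 on the minus strand for *S100A11*, chr15:60397937-60398236 on the minus strand for *ANXA2* and chr9:73151615-73151914 on the plus strand for *ANXA1*. The *S100A10* and *S100A11* windows resemble each other in these features, each with 1 GC box, no TATA box and a GC content of 71.7% and 65.3%. The *ANXA1* window has a GC content of 37.7% and 1 TATA box that begins 31 bases before the start, and the *ANXA2* window has a TATA box at the same place, 3 overlapping GC boxes and a GC content of 76.0%. The 10 members have 14 such windows, since some have several annotated starts. A TATA box was found in 4 of the 14, those of *ANXA1*, *ANXA2*, *S100A4* and 1 start of *S100A13*, against 11.5% of the 35116 windows of all genes, and a GC box in 9 of the 14 against 45.0% of all windows. The 4 members with a match to TATAAA were all depleted, as were 3 without one, beside 42.0% of all tested genes. Only exact matches were searched, so a window counted as without a TATA box may still hold a variant of it. No link is read from these few genes. The experiment measured RNA and not promoters, and whether these letters bear on recovery with IGF2BP2 was not tested.

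The libraries held 25773819 to 44045835 counted reads, and log2 levels within a group correlated across genes at 0.994 to 0.995. All 11 markers fixed for the kidney carcinoma line were above 5 CPM in at least 1 library (CPM are read counts scaled to a common library total), with *PAX8*, a kidney lineage transcription factor, at a mean of 453 CPM in input. The 7 endothelial and the 7 fibroblast and smooth muscle markers all stayed under 5 CPM, and of 10 immune markers only *CD68* passed it, at 107 to 115 CPM in RIP and 46.2 to 48.7 in input. The S100 genes of myeloid cells were at or near 0, with no read for *S100A8* in any library, 1 read in all for *S100A9* and 1 for *S100A12*. The labels do not say that replicates came from separate cultures, so the spread behind each p-value may be only technical. Because the RNA is from bulk cells, fewer cells that express a gene and less RNA per cell cannot be told apart behind a low level in input.

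Of the 10 members, 7 mRNAs were less abundant with IGF2BP2 than in input and 3 were more abundant. By edgeR's quasi-likelihood test with Benjamini-Hochberg adjustment over all tested genes, *ANXA4*, *S100A11* and *S100A16* were enriched, and *ANXA1*, *ANXA2*, *ANXA5*, *S100A4*, *S100A6*, *S100A10* and *S100A13* were depleted. The folds ran from 2.78-fold higher for *ANXA4* to 6.21-fold lower for *S100A10*. Being called is common in this comparison, since 40.7% of all tested genes were enriched and 42.0% depleted at an adjusted p under 0.05, which is 82.7% in either direction. Against a 1.5-fold change 2 members were enriched and 7 depleted, beside 23.1% and 26.1% of all tested genes (49.2% in either direction). In all 10 members the 3 RIP libraries lay beyond the 3 inputs, against 83.1% of all tested genes. The median log2 fold change of the members was -1.7, beside -0.02 over all tested genes. Fold changes are on CPM scaled by the trimmed mean of M-values (TMM), which sets them relative to the average gene. Scaling by library size alone moved the median of all tested genes to -0.26 and that of the members to -1.94. On that scale 2 members were enriched and 7 depleted, against 32.0% and 50.4% of all tested genes (82.4% in either direction).

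**Figure D1:**
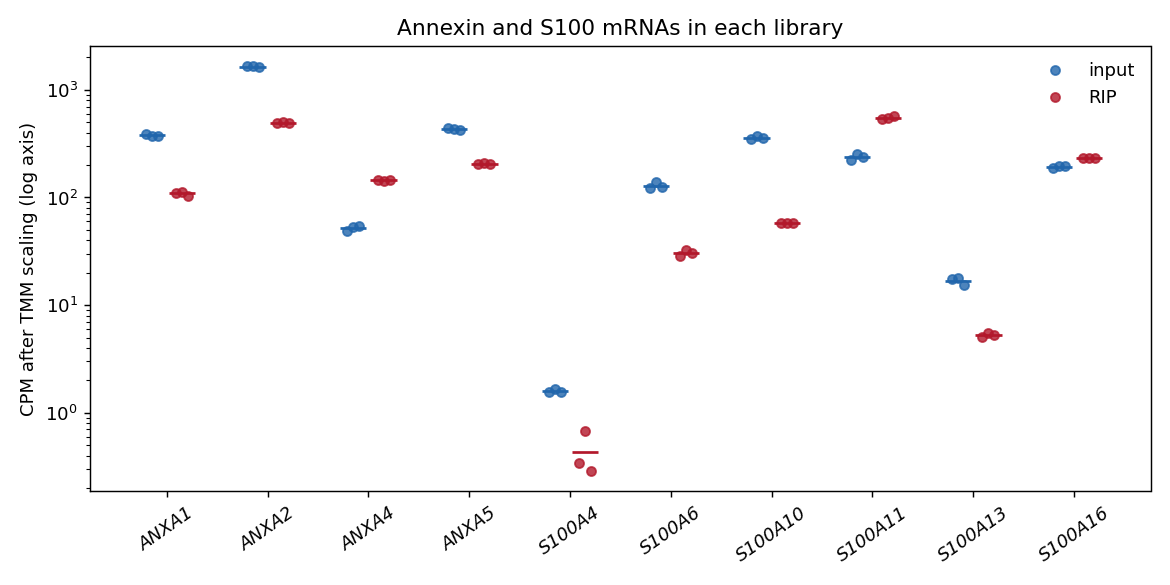
Levels of the 10 members in each of the 6 libraries, as CPM after TMM scaling on a log axis, with input in blue, RIP in red and a bar at the mean of 3 libraries. The RIP points lie below the input points for 7 members and above them for *ANXA4*, *S100A11* and *S100A16*, and the points spread visibly only for *S100A4* in RIP.

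*ANXA2* was the most abundant annexin mRNA in input and was depleted. It encodes the annexin that pairs with S100A10 and binds plasminogen at the cell surface (gene ID 302, chromosome 15, 60347151 to 60397986 on GRCh38). It stood at 496, 498 and 491 CPM in RIP libraries 1, 2 and 3 and at 1655, 1659 and 1614 CPM in inputs 1, 2 and 3. The groups were far apart and libraries of one group differed little, giving a 3.32-fold lower level in RIP (log2 fold change -1.73, SE 0.014, edgeR adjusted p = 5.19e-23). RefSeq lists 3 pseudogenes of *ANXA2* that are no rows of the table, and the sources used here do not say how reads that match several places were counted.

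*ANXA1*, the annexin induced by glucocorticoids that acts on formyl peptide receptors and limits inflammation (gene ID 301, chromosome 9, 73151865 to 73170393), was depleted to a like degree. Its values were 110, 113 and 104 CPM in RIP and 392, 370 and 376 CPM in input. The mean fell from 379 ± 11.6 in input to 109 ± 4.56 CPM in RIP (SD, n = 3 each), which is 3.48-fold lower (log2 fold change -1.80, SE 0.043, edgeR adjusted p = 4.15e-22). *ANXA5*, the phosphatidylserine-binding annexin used as a stain for apoptotic cells (gene ID 308, chromosome 4, 121667946 to 121696980), was the least depleted of the annexin members. It measured 207, 207 and 204 CPM in RIP and 445, 431 and 422 CPM in input. The groups did not overlap, and the level was 2.10-fold lower in RIP (log2 fold change -1.07, SE 0.024, edgeR adjusted p = 1.53e-18).

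*ANXA4* went the other way. It encodes an annexin of epithelial cells that self-associates on membranes (gene ID 307, chromosome 2, 69643808 to 69827112). Its levels were 144, 143 and 146 CPM in RIP and 48.5, 53.0 and 54.2 CPM in input, so every RIP library held well over any input. The 2.78-fold enrichment (log2 fold change 1.48, SE 0.049, edgeR adjusted p = 1.51e-19) was above that of 94.7% of all tested genes. Per length it was the least abundant of the 4 annexin members in input.

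Among the S100 members *S100A10* was the most depleted. Its protein is the partner of ANXA2 and is unusual among S100 proteins in having lost calcium binding (gene ID 6281, chromosome 1, 151982915 to 151993859). It stood at 57.8, 58.5 and 58.0 CPM in RIP and at 349, 375 and 358 CPM in input. The RIP libraries were nearly identical, and the level was 6.21-fold lower than in input (log2 fold change -2.63, SE 0.030, edgeR adjusted p = 5.68e-25). Of all tested genes only 1.14% had a lower fold change.

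*S100A6*, or calcyclin, which binds the calcyclin-binding protein CACYBP (gene ID 6277, chromosome 1, 153534599 to 153535991), measured 28.7, 32.5 and 30.7 CPM in RIP and 123, 140 and 125 CPM in input. It was 4.21-fold lower in RIP (log2 fold change -2.07, SE 0.079, edgeR adjusted p = 6.60e-21), with no overlap of the groups. *S100A13*, which takes part in the release of the growth factor FGF1 by a route outside the secretory pathway (gene ID 6284, chromosome 1, 153618799 to 153634361), had low levels of 5.01, 5.51 and 5.29 CPM in RIP and 17.4, 17.7 and 15.5 CPM in input. That is 3.20-fold lower (log2 fold change -1.68, SE 0.070, edgeR adjusted p = 1.60e-14).

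*S100A4*, known as metastasin for its link to tumour spread and its binding of nonmuscle myosin (gene ID 6275, chromosome 1, 153543621 to 153545806), was scarce in these cells. Its reads numbered 12, 27 and 9 in RIP replicates 1 to 3, against 44, 49 and 44 in the inputs. The 95% Poisson intervals of these counts cover counting error only and are not scaled for the larger totals of the RIP libraries. They were 6.20 to 21.0, 17.8 to 39.3 and 4.12 to 17.1 reads in RIP and together spanned 32.0 to 64.8 reads in input. In TMM-scaled CPM the groups did not overlap, and the fitted level was 3.54-fold lower in RIP (log2 fold change -1.82, SE 0.33, edgeR adjusted p = 7.65e-06). RIP library 2 stood above the other RIP libraries, and without it the log2 fold change was -2.31. After the correction for gene length the change was -0.33 and was not called (edgeR adjusted p = 0.339). The span of *S100A4* shares 65 bases with that of *S100A5*, so reads there may be assigned to either.

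*S100A11* was the most abundant member in RIP. Its protein, the partner of ANXA1, acts in membrane repair and growth control (gene ID 6282, chromosome 1, 152032506 to 152037004). Its levels were 531, 551 and 577 CPM in RIP and 225, 251 and 238 CPM in input. All RIP libraries were above all inputs by more than the spread in either group, a 2.32-fold enrichment (log2 fold change 1.22, SE 0.056, edgeR adjusted p = 1.46e-18) that exceeded that of 90.2% of all tested genes. RefSeq lists 10 pseudogenes named after *S100A11*, none of them a row of the table, so its counts may lack or include reads that also match those copies.

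*S100A16*, a broadly expressed S100 protein (gene ID 140576, chromosome 1, 153606883 to 153613137), had the smallest fold of the members with TMM scaling. It stood at 231, 232 and 231 CPM in RIP and at 189, 195 and 196 CPM in input. The groups did not overlap, but the difference was small, at 1.20-fold (log2 fold change 0.26, SE 0.017, edgeR adjusted p = 1.15e-06). With library size alone as the scale it was 0.018 on the log2 scale and was not called (edgeR adjusted p = 0.675), and limma on log2(FPKM + 1) gave the same 0.018 (adjusted p = 0.631). After the correction for gene length the change was larger, at 1.10 on the log2 scale or 2.14-fold (edgeR adjusted p = 3.61e-18), and *ANXA5*, *S100A4* and *S100A13* were then nearer to 0. The adjusted p ran from 3.61e-18 to 1 over all alternatives.

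**Figure D2:**
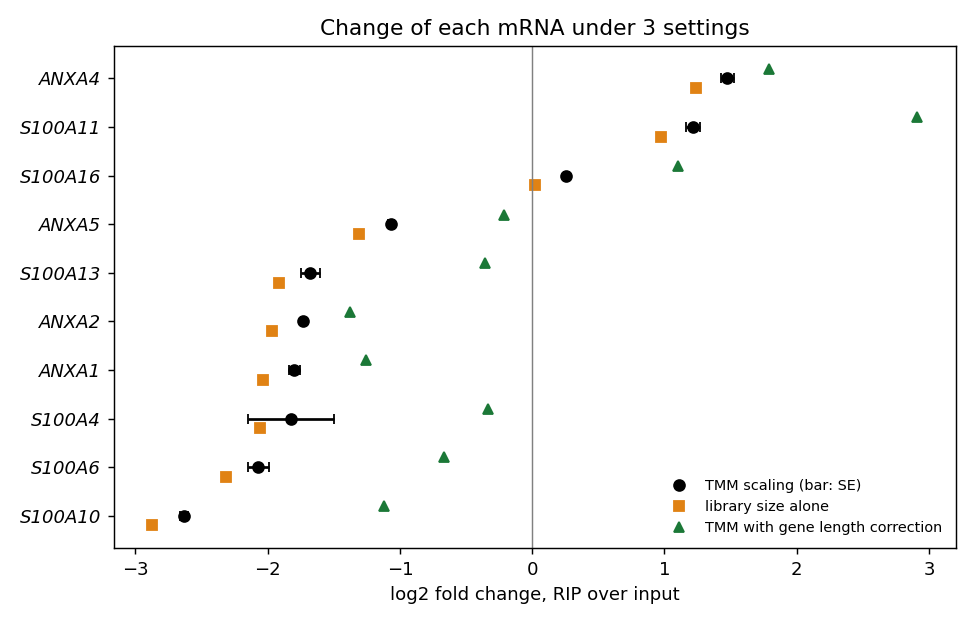
Log2 fold change of RIP over input for each member with TMM scaling (black, bar of 1 SE), with library size alone (orange squares) and after removal of the trend with gene length (green triangles). *S100A10* lies farthest to the left with TMM scaling at -2.63 and *ANXA4* farthest to the right at 1.48, while *S100A11* moves to 2.91 after the length correction.

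Ratios of one mRNA to another within a library do not depend on how libraries are scaled, and 5 pairs of known partners or close relatives were compared in this way. For ANXA2 and S100A10, which form one complex, both mRNAs were depleted but not equally. There were 8.58, 8.52 and 8.47 reads of *ANXA2* per read of *S100A10* in RIP and 4.74, 4.43 and 4.51 in input. The ratio was thus 1.87-fold higher in RIP (log2 change 0.90, SE 0.030). It is not corrected for gene length, which is 2722 nt for *ANXA2* and 727 nt for *S100A10*. After the correction for gene length the order turned, with log2 fold changes of -1.38 for *ANXA2* and -1.12 for *S100A10*. For ANXA1 and S100A11 the mRNAs parted, with 0.207, 0.205 and 0.180 reads of *ANXA1* per read of *S100A11* in RIP and 1.74, 1.47 and 1.58 in input. *ANXA1* had more reads than *S100A11* in every input and fewer in every RIP library, an 8.09-fold lower ratio (log2 change -3.02, SE 0.095). *ANXA4* had 0.696, 0.692 and 0.714 reads per read of *ANXA5* in RIP and 0.109, 0.123 and 0.129 in input, a 5.85-fold higher ratio. *S100A13* had 0.0216, 0.0238 and 0.0229 reads per read of its neighbour *S100A16* in RIP and 0.0919, 0.0906 and 0.0793 in input, a 3.82-fold lower ratio. In these 4 pairs the groups did not overlap, and the two-sided exact permutation test gave p = 0.1 for each, the smallest that 3 against 3 libraries allow, or 0.125 adjusted over the 5 pairs. The ratio of *S100A4* to *S100A6* was 0.0119, 0.0206 and 0.00939 in RIP and 0.0127, 0.0118 and 0.0126 in input, with overlapping groups (log2 change 0.14, SE 0.32, exact permutation p = 0.9). Leaving out RIP library 2 turned that change to -0.17.

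Levels of different genes were compared per length, in FPKM, which scale the reads by exonic length and by the library total. In input the order was *ANXA2* at 656 ± 10.8 FPKM (SD, n = 3), *S100A10* at 539 ± 23.2, *S100A11* at 460 ± 28.1, *ANXA5* at 287 ± 6.36, *ANXA1* at 182 ± 4.19, *S100A6* at 166 ± 13.1, *S100A16* at 126 ± 3.45, *ANXA4* at 20.1 ± 1.29, *S100A13* at 19.5 ± 1.35 and *S100A4* at 2.31 ± 0.089. Libraries of *ANXA1* and *S100A6* overlapped, as did those of *ANXA4* and *S100A13*, and other neighbours in the order did not. In RIP *S100A11* came first at 903 ± 36.9 FPKM, followed by *ANXA2* at 167 ± 1.03, *S100A16* at 128 ± 0.481, *ANXA5* at 116 ± 0.851 and *S100A10* at 73.5 ± 0.056. Below them stood *ANXA4* at 47.2 ± 0.550, *ANXA1* at 44.2 ± 1.72, *S100A6* at 33.3 ± 1.91, *S100A13* at 5.16 ± 0.225 and *S100A4* at 0.533 ± 0.251 FPKM. No neighbours in this order overlapped. *S100A10* moved from rank 2 to rank 5 and *ANXA4* from rank 8 to rank 6.

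**Figure D3:**
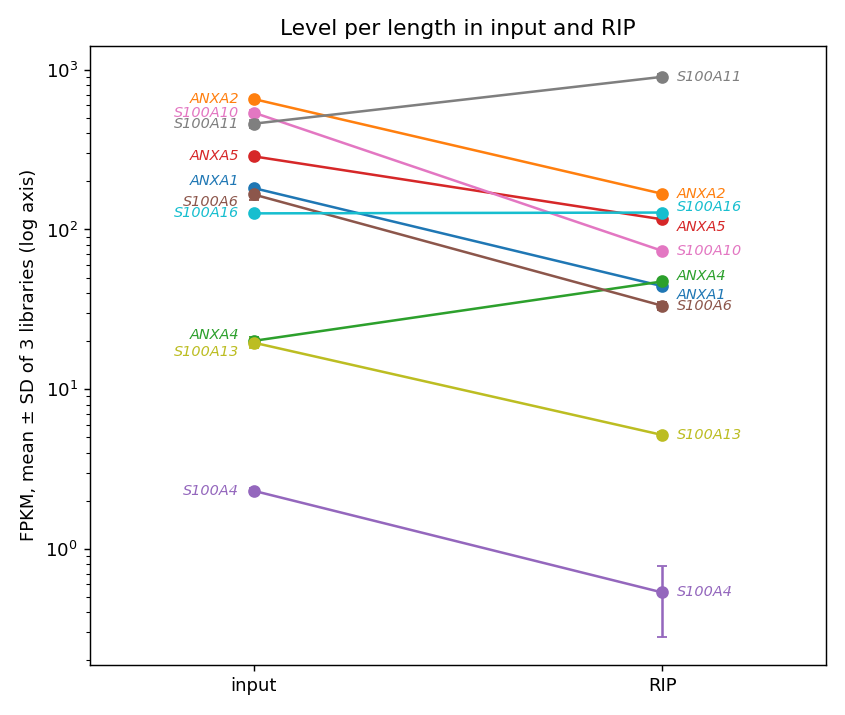
Level of each member per length in input (left) and RIP (right), as mean FPKM of 3 libraries with SD on a log axis, joined by a line for each gene. *S100A11* is first in RIP at 903 FPKM but behind *ANXA2* and *S100A10* in input at 460 FPKM, and the lines of *ANXA2* and *S100A10* fall while that of *S100A16* is almost level.

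As a share of reads, the make-up of both families differed between the groups. The 13 annexin genes of the table together took 0.326%, 0.331% and 0.324% of the reads in the inputs and 0.143%, 0.142% and 0.141% in RIP. *ANXA2* held 54.7%, 54.8% and 54.3% of the annexin reads in input and 31.9%, 32.2% and 32.0% in RIP, with no overlap. *ANXA1* held 12.6% ± 0.387 of them in input and 7.05% ± 0.249 in RIP, whereas *ANXA4* held 1.73% ± 0.111 in input and 9.34% ± 0.150 in RIP (SD, n = 3 each). *ANXA5* differed least of the 4, with 14.4% ± 0.296 in input and 13.3% ± 0.042 in RIP, and its groups did not overlap either. The 20 S100 genes of the table took 0.101%, 0.111% and 0.105% of the reads in input and 0.0795%, 0.0812% and 0.0839% in RIP. *S100A10* held 37.3%, 37.0% and 37.0% of the S100 reads in input and 6.72%, 6.59% and 6.37% in RIP. *S100A11* held 24.1%, 24.8% and 24.6% in input and 61.7%, 62.1% and 63.4% in RIP, so that it took the place of *S100A10* as the leading S100 mRNA in every RIP library. *S100A6* held 13.3% ± 0.473 of S100 reads in input and 3.46% ± 0.180 in RIP, and *S100A16* held 19.9% ± 0.542 and 26.1% ± 0.753. Shares within a family do not depend on the scaling of libraries.

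**Figure D4:**
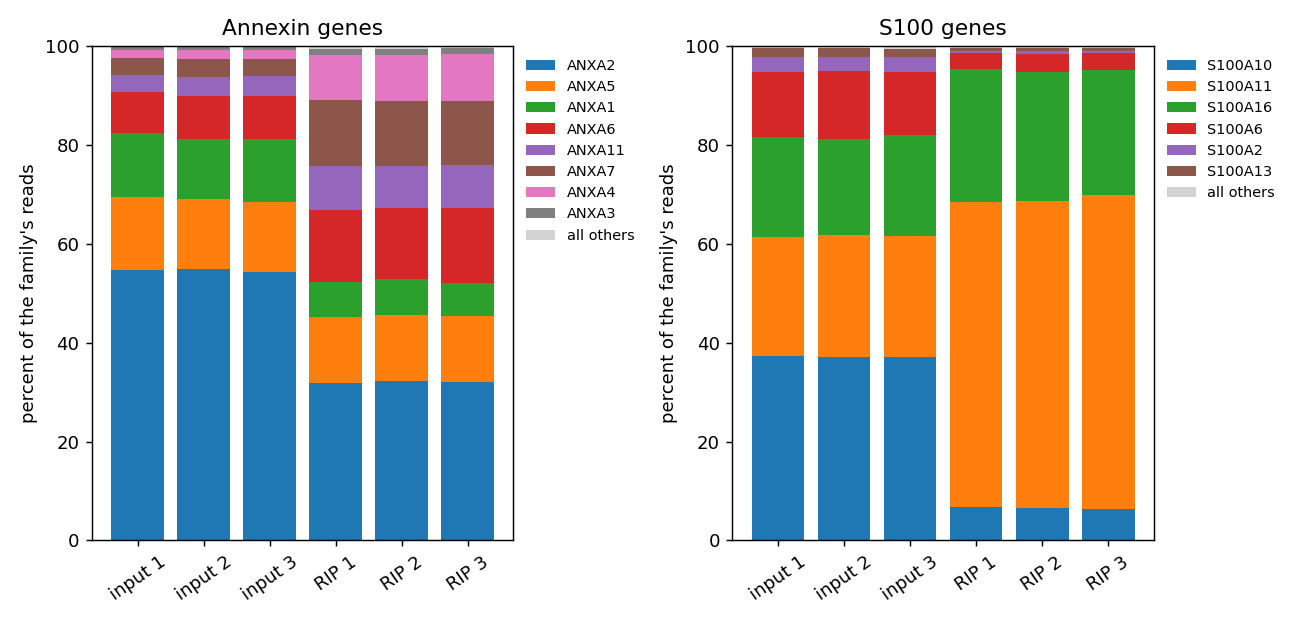
Percent of all annexin reads (left) and of all S100 reads (right) held by each gene in each library, stacked to 100%. In the S100 panel the orange block, *S100A11*, covers 24.1% to 24.8% in input and 61.7% to 63.4% in RIP, and in the annexin panel the blue block, *ANXA2*, is smaller in RIP.

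All 10 members are shorter than the median tested gene of 3981 nt in exonic length, from 563 nt for *S100A11* to 2811 nt for *ANXA4*. Short genes tended to be depleted in these data, with a Spearman rho of 0.435 between length and log2 fold change over all tested genes, which are not independent replicates. After that trend was removed, 3 members were enriched and 6 depleted, beside 40.2% and 40.0% of all tested genes (80.2% in either direction), and the median of the members moved from -1.7 to -0.35. *S100A11* then had a log2 fold change of 2.91 (edgeR adjusted p = 7.01e-25), above 99.7% of all tested genes, *ANXA4* had 1.79 (above 97.0%) and *S100A16* had 1.10 (above 87.9%). *ANXA2* (-1.38), *ANXA1* (-1.25) and *S100A10* (-1.12) stayed depleted more than 2-fold. *S100A6* (-0.67), *S100A13* (-0.36) and *ANXA5* (-0.21) were still called but closer to 0, and *S100A4* was no longer called (-0.33, edgeR adjusted p = 0.339, which over all alternatives ran from 1.80e-08 to 0.339). Only 0.708% of tested genes are shorter than *S100A11* and 1.22% shorter than *S100A10*. For *S100A4*, *S100A6* and *S100A13* the shares are 1.3%, 1.84% and 2.52%. All of these S100 members thus lie at the short edge of the fitted trend, where it rests mostly on longer genes. Their corrected values are less certain for that reason.

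**Figure D5:**
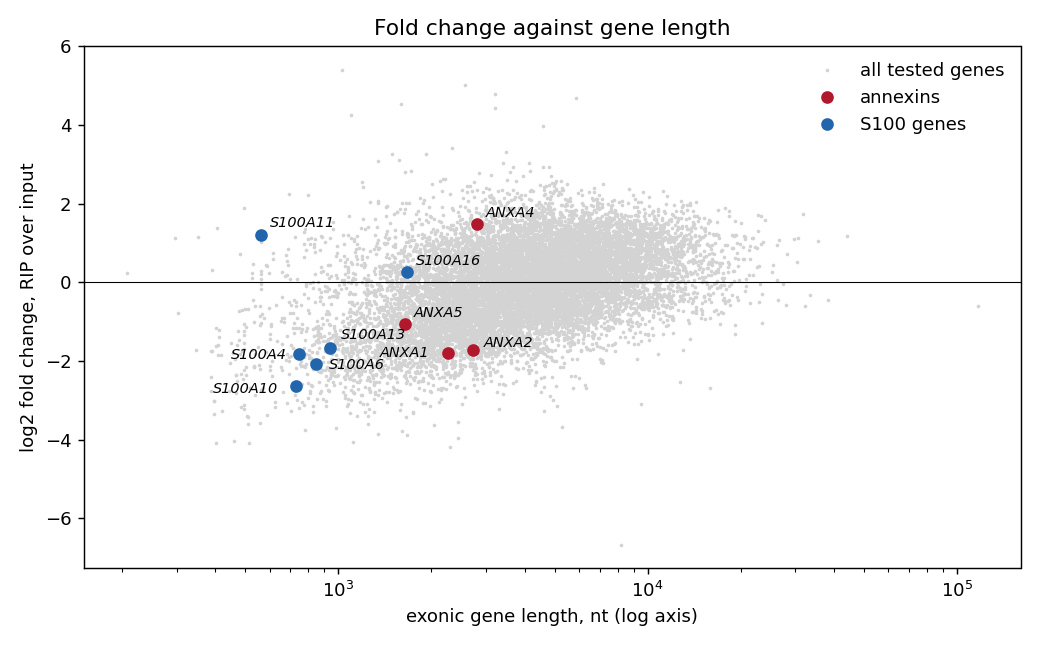
Log2 fold change of RIP over input against exonic gene length on a log axis, for all 12856 tested genes (grey), the annexin members (red) and the S100 members (blue). *S100A11*, at 563 nt and 1.22, lies above most genes of like length, and *S100A10*, at 727 nt and -2.63, lies among the lower ones.

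The S100 genes of chromosome 1 are given in order of position. Of the 16 S100 genes of the table on this chromosome, 10 were tested. *S100A10* and *S100A11* are separated by 38646 bases on GRCh38 and had log2 fold changes of -2.63 and 1.22. The next tested S100 gene, *S100A6* (-2.07), starts 1551.7 kb from the start of *S100A10*, with 5 untested S100 genes of few or no reads between. It is followed by *S100A5* (0.06, not called), *S100A4* (-1.82), *S100A3* (-0.50) and *S100A2* (-2.73), and then by *S100A16* (0.26), *S100A13* (-1.68) and *S100A1* (-0.25, not called). Whether position and fold change are related was not tested. *S100A13* overlaps *S100A1* and *CHTOP* in the annotation. No source used here gives the strand setting of the counting, so their reads may not be separable.

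Relatives outside the members were counted in the same way, to be read against the 40.7% of all tested genes that were enriched and the 42.0% that were depleted. Of 9 other annexin genes, 7 were tested, of which 4 were enriched, 1 was depleted and 2 did not pass. Their median log2 fold change was 0.44. *ANXA7*, an annexin first described in the fusion of secretory granules, rose from 108 ± 3.15 CPM in input to 203 ± 4.94 in RIP, 1.87-fold (edgeR adjusted p = 2.24e-16). *ANXA11*, an annexin linked to RNA granule transport, was 1.19-fold higher and *ANXA6*, a large annexin with a doubled core, 1.14-fold lower. Both small differences depended on the setting. After the length correction *ANXA11* was at -0.13 and *ANXA6* at 0.044 on the log2 scale, and with library size alone *ANXA11* was not called (edgeR adjusted p = 0.778, with a range of 3.66e-08 to 1 over all alternatives). Scaled by library size, 3 of the 7 were enriched and 2 depleted (*ANXA3* and *ANXA6*), beside 32.0% and 50.4% of all tested genes. With the length correction 5 were enriched and 1 depleted, beside 40.2% and 40.0%, and their median was 1.35. *ANXA8* and *ANXA8L1* were also enriched but are near-identical copies with 38 to 174 reads a library, so their single values are uncertain. Of 15 other S100 genes 14 are rows of the table and 4 had enough reads to be tested. None of these was enriched by edgeR, 0 also at an unadjusted p under 0.05 and 0 with DESeq2 or limma-voom, and 2 were depleted (1 with DESeq2). *S100A2*, a nuclear S100 protein of epithelia, had 3.46, 4.59 and 4.84 CPM in RIP and 28.0, 29.0 and 28.5 CPM in input, 6.64-fold lower (edgeR adjusted p = 9.43e-19). After the length correction *S100A2* was still depleted, at -1.81, and the other 3 were enriched, of which *S100A1* and *S100A5* rest on 14 to 30 reads a library. Those 3 also lie at the short edge of the fitted trend, with 1.81% to 3.1% of tested genes shorter.

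Genes of annexin and S100 partners and of membrane repair counted 7 enriched, 10 depleted and 5 not called of 22 tested, and their median log2 fold change was -0.30. Scaled by library size, 4 were enriched and 13 depleted, beside 32.0% and 50.4% of all tested genes. With the length correction 7 were enriched and 12 depleted, beside 40.2% and 40.0%. The counts with TMM scaling stand beside 40.7% and 42.0% of all tested genes, as do those of the EF-hand and C2-domain proteins that follow. Nothing particular to either list is read from these counts. *CACYBP*, whose protein binds S100A6, was depleted as *S100A6* was with TMM scaling. *CACYBP* had 25.1, 24.8 and 25.2 CPM in RIP and 100.1, 102 and 99.98 in input, 4.02-fold lower (edgeR adjusted p = 6.83e-22). After the length correction *CACYBP* was still 4.01-fold lower but *S100A6* only 1.59-fold lower, so the likeness depended on the setting. *AHNAK*, the giant scaffold that the ANXA2 and S100A10 complex anchors, was 2.12-fold lower (edgeR adjusted p = 0.00296), with 910, 927 and 949 CPM in RIP. Its inputs spread widely, at 1532, 2165.5 and 2196 CPM, and input 1 was the low one. *EGFR*, the epidermal growth factor receptor, a kinase for which ANXA1 is a substrate, rose 2.85-fold to 2061 ± 48.8 CPM, and *SYT1*, a calcium sensor of exocytosis, rose 2.72-fold to 11.8 ± 0.389 CPM. Genes of other proteins with EF-hands or C2 domains were 16 enriched, 18 depleted and 1 not called of 35, with a median of -0.33. The C2-domain protein *CPNE3* rose 3.44-fold and the calcineurin-like EF-hand protein *CHP1* 2.32-fold. *RCN2*, a calcium-binding protein of the endoplasmic reticulum, was 6.11-fold lower and the myosin light chain *MYL6* 5.28-fold lower.

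Genes most like the extremes were sought by the root mean square difference of centred log2 CPM over the 6 libraries, among 9916 other genes that averaged 5 CPM or more. Nearest to *ANXA4* were *PRKX* (0.0116), *ATG4A* (0.0178) and *VKORC1L1* (0.0255), with log2 fold changes of 1.47, 1.45 and 1.47. Nearest to *S100A10* were *POMP* (0.0312), *PSME2* (0.0435) and *RPS20* (0.0464), with log2 fold changes of -2.62, -2.61 and -2.70. These distances describe 6 libraries in 2 groups and rest mainly on the size of the difference between RIP and input. They use values without the length correction. With it *POMP*, *PSME2* and *RPS20* were at -2.54, -1.27 and -2.27 on the log2 scale, beside -1.12 for *S100A10*. *PRKX*, *ATG4A* and *VKORC1L1* were then at 1.156, 1.979 and 1.155, beside 1.79 for *ANXA4*.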

How the data were processed

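RIP-seq of 786-O cells was analysed in 3 IGF2BP2 and 3 input libraries, with groups and replicate numbers from the sample titles. The authors deposited raw read counts per gene symbol and FPKM values for 20020 genes. Per the labels' protocols, poly(A) RNA was made into Tru-seq libraries. Tools listed in the submitters' processing notes are STAR 2.7.10a, fastp 0.23.2, DESeq2 and featureCounts, with build hg38. Annotation, strand setting and treatment of multiply aligned reads: not given in the sources used here. The deposited FPKM equal the counts scaled by column totals and 1 length per gene, whole to within 2.33e-10 nt, which served as exonic length.

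Genes were kept by filterByExpr (12856), scaled with TMM and tested with edgeR 4.0.16 (quasi-likelihood, robust, group as the only term, R 4.3.3), with Benjamini-Hochberg adjustment over all of them and calls at an adjusted p under 0.05. SEs come from the spread of log2 CPM (prior count 2) between libraries. Totals were 25773819 to 44045835 reads. Among the members counting error is largest for *S100A4*, and among relatives *S100A1*, *S100A5*, *ANXA9*, *ANXA8* and *ANXA8L1* also rest on few reads. The length correction used a robust loess curve (span 0.3) as offsets. Ratios within a library used a pseudocount of 0.5 and an exact permutation test. Other settings tried were scaling by library size, upper quartile or RLE, TMM computed without mitochondrial and ribosomal protein genes, limma-voom 3.58.1, DESeq2 1.42.0, a test against 1.5-fold, other filters (none, or 5 CPM in 3 libraries), the replicate block, limma on log2 FPKM with 1 or 0.1 added, and each library left out. The method was tested on simulated data. Replicates differed by more than sampling noise (chi-square per gene 3.42 to 8.46). Members, lists and tests were chosen with earlier results of these data known. Named genes were the 10 members, up to 2 called genes per direction with a mean of at least 5 CPM in each related list (or, without any call, the 2 most abundant), and the 3 nearest genes to the members of highest and lowest fold change. Coordinates and promoter sequences are RefSeq's (GRCh38.p14), to which all 10 members matched by symbol. *ANXA8*, *ANXA8L1*, *ANXA10*, the cell type markers and the unexpressed S100 genes were named in addition.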

Additional observations from a re-analysis of the deposited data

How the results depend on the processing

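The counts of members kept close to the reported 3 enriched and 7 depleted: 2 or 3 were enriched and 6 or 7 depleted over 20 alternatives. *S100A16* left the enriched calls with library size alone, limma on log2 FPKM and the test against a 1.5-fold change. *S100A4* left the depleted calls with the length correction (log2 fold change -0.33, or -0.37 with the replicate block as well) and was not tested under the filter of 5 CPM. Leaving out 1 library gave 3 and 7 each time. Over all genes the test against a 1.5-fold change called 2973 enriched and 3358 depleted in place of 5232 and 5403. Library size alone gave 4115 and 6476, limma on log2(FPKM + 1) gave 4063 and 6430, and leave-one-out fits gave 5074 to 5144 and 5261 to 5316. With library size alone 2 other annexins were depleted and 4 partner genes enriched, where 50.4% of all tested genes were depleted and 32.0% enriched. With the length correction 3 other S100 genes were enriched and 1 depleted, beside 40.2% and 40.0% of all tested genes. *ANXA11* reversed to -0.13 with the length correction (-0.13 with the replicate block as well, -0.1329 unrounded) and *ANXA6* to 0.044 (0.044). The *S100A4* to *S100A6* ratio reversed to -0.17 without RIP replicate 2, and ranged from -0.17 to 0.37 over leave-one-out fits. Leave-one-out changes of the log2 ratio were 0.88 to 0.93 for *ANXA2* to *S100A10*, -3.07 to -2.95 for *ANXA1* to *S100A11*, 2.48 to 2.60 for *ANXA4* to *ANXA5* and -2.002 to -1.895 for *S100A13* to *S100A16*. Chosen after seeing the data, shares of summed FPKM gave changes of 44.2 percentage points for *S100A11* and -19.4 for *ANXA2*, beside 37.9 and -22.6 by reads. Of the 559 comparisons of a named gene's fold change with its value under an alternative, 544 kept direction and call. The cause of these differences was not tested.

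Same-numbered RIP and input libraries did not deviate together (correlations 0.036, -0.046 and 0.035), and 1 of 3 RIP libraries correlated best with its own number. With the replicate block 5210 genes were enriched and 5390 depleted, with 3 and 7 members. Precision is limited by 3 libraries a group, by a single target protein and a single line, and for *S100A4* by its few reads.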

Other observations

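Several relatives had too few reads to be tested. *ANXA10*, an annexin of the stomach, had 1, 25 and 6 reads in the RIP replicates 1 to 3, against 1, 2 and 0 in the inputs, so that RIP library 2 held most of them. *S100P* had 4 reads, all in RIP library 2, and *S100A14* had 4 and 1 reads in inputs 1 and 3 and none in RIP. *S100A7*, *S100A7A* and *S100Z* had no read in any library. These genes were chosen after their values were seen.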
